A study of Mus musculus with 24 samples.

Results

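The core circadian clock genes were examined as a group of 10, chosen by name, with earlier results of these data known: the activators Arntl, Clock and Npas2, the repressors Per1, Per2, Per3, Cry1 and Cry2, and the output factors Dbp and Tef. Of the 10, 8 had a row in the count table and all 8 passed the filter on low counts, out of 12615 genes in the table and 12485 tested. Npas2 and Dbp had no row in the table and are not analysed here. RNA of brown adipose tissue (BAT) was counted by 3′ tag sequencing in 24 mice, with 6 in each of 4 groups: Cre- at 30°C, BATdKO at 30°C, Cre- at 8°C and BATdKO at 8°C. All mice carried floxed alleles of both TBLR1 and TBL1, subunits of the NCOR/HDAC3 corepressor complex, and all had received tamoxifen. BATdKO mice also carried Ucp1CreERT2, a Cre recombinase under the Ucp1 promoter that tamoxifen activates, and Cre- mice lacked it. By this design deletion is confined to cells in which that promoter is active, and deletion itself was not measured here. Mice were raised at 22°C, and the change of temperature began 3 weeks after the last tamoxifen injection. Warm mice then spent 4 days at 30°C, and cold mice passed 1 day each at 18°C, 16°C and 12°C before 6 days at 8°C, as the labels give it. The labels give females, whereas the paper gives males, a shorter stay in the cold and fewer mice per group for the sequencing. Age is not stated here, because the labels give years where the paper gives weeks. Neither source gives the hour at which tissue was taken from each mouse. Within each group the mice carry the names m1 to m6, which pair no mice between groups.

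The clock is a feedback loop of transcription. ARNTL (BMAL1) pairs with CLOCK or NPAS2, binds E-box sequences and switches on Per and Cry genes, whose proteins return to the nucleus and repress the pair. In a second loop the receptors REV-ERBα and REV-ERBβ repress Arntl and the ROR receptors activate it, and the PAR bZIP factors DBP, TEF and HLF pass the rhythm on through D-box sequences. The NCOR/HDAC3 complex is a corepressor of the REV-ERB receptors, and brown fat is among the tissues in which clock genes are rhythmic.

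Promoter sequences are shown for 5 members so that the letters through which clock factors are known to act can be read beside the measurements. Each is the 250 bases before a RefSeq transcription start on GRCm38.p6, 5′ to 3′ on the strand of the gene. Capitals mark exact matches, on either strand, to the E-box CACGTG, the D-box TTATGTAA or TTACGTAA, the core of the ROR/REV-ERB element AGGTCA, which reads TGACCT on the other strand, and the cAMP response element TGACGTCA. Per3 (chr4:151044666-151044915, minus strand) is shown because it was the member that passed the test. Per1 (chr11:69098699-69098948, plus strand) and Cry1 (chr10:85185055-85185304, minus strand) are shown as the other repressors with a match. Tef (the second start, chr15:81811164-81811413, plus strand) is shown as the output factor, and Arntl (the first start, chr7:113207215-113207464, plus strand) as the activator. Neither start of Arntl held an exact match in this window. Other spellings of these elements and bases outside the window were not searched, so an element there would not be seen.
Per3: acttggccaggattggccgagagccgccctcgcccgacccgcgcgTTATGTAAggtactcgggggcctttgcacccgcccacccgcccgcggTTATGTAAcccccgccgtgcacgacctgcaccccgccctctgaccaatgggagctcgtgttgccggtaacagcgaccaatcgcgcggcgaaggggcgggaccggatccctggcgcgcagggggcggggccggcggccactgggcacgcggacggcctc
Per1: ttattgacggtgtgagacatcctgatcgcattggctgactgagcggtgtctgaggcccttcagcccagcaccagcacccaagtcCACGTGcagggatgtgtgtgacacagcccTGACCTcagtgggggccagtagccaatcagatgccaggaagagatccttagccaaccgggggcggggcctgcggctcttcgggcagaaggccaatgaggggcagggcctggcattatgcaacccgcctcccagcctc
Cry1: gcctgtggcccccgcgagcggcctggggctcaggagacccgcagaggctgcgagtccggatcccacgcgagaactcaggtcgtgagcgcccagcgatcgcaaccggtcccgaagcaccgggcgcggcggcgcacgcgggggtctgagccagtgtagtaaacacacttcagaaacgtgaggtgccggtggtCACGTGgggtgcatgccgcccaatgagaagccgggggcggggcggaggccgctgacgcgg
Tef: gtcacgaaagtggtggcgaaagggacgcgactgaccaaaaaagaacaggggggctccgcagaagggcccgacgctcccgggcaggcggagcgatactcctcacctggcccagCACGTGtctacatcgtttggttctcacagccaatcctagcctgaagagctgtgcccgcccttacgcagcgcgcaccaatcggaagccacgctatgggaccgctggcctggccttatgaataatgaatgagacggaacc
Arntl: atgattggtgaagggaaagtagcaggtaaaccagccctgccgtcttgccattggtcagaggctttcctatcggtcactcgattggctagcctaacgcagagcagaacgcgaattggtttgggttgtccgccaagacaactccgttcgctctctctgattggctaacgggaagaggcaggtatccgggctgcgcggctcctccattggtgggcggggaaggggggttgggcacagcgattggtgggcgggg
The Per3 stretch held 2 D-boxes of the same letters, which began 205 and 158 bases before the start, and a D-box stood in 0.93% of the 32851 promoters of the table. The E-box began 166 bases before the start of Per1, 60 before that of Cry1 and 138 before that of Tef, and 6.02% of promoters held one. The ROR/REV-ERB core in Per1 lay 137 bases before the start, and 14.02% of promoters held that core. The first start of Tef also held an E-box, and the third start of Clock a ROR/REV-ERB core. No match overlapped another. The table held 9 of the 10 members with 14 starts. It held no entry for Per2, so the promoter of Per2 was not searched. A match is a description of letters in this window.

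The libraries held 699703 to 11527643 counts on genes, with the lowest total in Cre- mouse m4 at 30°C and the next lowest, 2738613, in BATdKO mouse m1 at 8°C. Markers of the labelled tissue were present. Ucp1, the uncoupling protein of brown adipocytes, lay at 28.9 to 548 CPM (counts scaled to a common, TMM-normalized library size) in Cre- mice at 30°C and 968 to 2076 CPM at 8°C, and its log2 fold change with cold was 3.10 (SE 0.44, adjusted p = 2.67e-05, edgeR's quasi-likelihood test) in Cre- mice and 2.54 (SE 0.43, adjusted p = 0.000389) in BATdKO mice. Hepatocyte markers were also present in every library: all 6 listed genes were detected in all 24, with 2.44% to 3.84% of all counts, whereas the 11 brown adipocyte markers together took 0.0818% to 0.516%. Albumin (Alb) alone lay at 5686 to 14393 CPM, above Ucp1 in every library. None of the 6 hepatocyte markers passed the adjusted threshold in any contrast. Of the 11 brown adipocyte markers 4 rose and 1 fell with cold under each label. The shares of all genes that rose and fell were 5.57% and 3.59% in Cre- mice and 3.76% and 3.31% in BATdKO mice. At 8°C 1 of the 11 was lower under the BATdKO label, against 1.12% of all genes. The brown adipocyte share had a median of 0.165% in Cre- mice and 0.346% in BATdKO mice at 30°C, and 0.373% and 0.427% at 8°C. Ucp1 counts are part of this share, so its change with cold includes that of Ucp1. The share of skeletal muscle markers ran from 9.23e-05% to 0.869%, highest in Cre- mouse m3 at 30°C. The muscle share had a median of 0.0234% in Cre- mice and 0.0193% in BATdKO mice at 30°C, and of 0.0431% and 0.00452% at 8°C. Which cells gave the clock gene counts below was not tested, and in bulk tissue fewer cells of a type and less RNA per cell cannot be told apart. Both targeted genes were higher in libraries labelled BATdKO at 8°C and, without passing the adjusted threshold, at 30°C, so groups are called by their labels. A 3′ tag outside the floxed exons would not show their deletion, and the place of the tags relative to those exons was not examined. At 8°C Tbl1xr1 (TBLR1) lay at 18.2 to 24.6 CPM under the Cre- label and 33.7 to 44.3 CPM under the BATdKO label, and Tbl1x (TBL1) at 38.7 to 43.8 and 42.4 to 63.6 CPM. At 30°C the log2 fold change between genotypes was 0.44 for Tbl1xr1 (adjusted p = 0.36, edgeR's test) and 0.35 for Tbl1x (adjusted p = 0.205). Library codes in the labels form separate ranges for the 2 temperatures, so temperature and that order cannot be told apart.

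Of the 8 measured members only Per3 passed the adjusted threshold, with lower levels in the cold under both genotype labels. With 8 members, a count of 1 is near the share of all genes given beside it and is not read as a result about clock genes. In Cre- mice 1 of 8 members passed the adjusted threshold of 0.1 between 8°C and 30°C, against 9.15% of all genes tested (5.57% higher and 3.59% lower in the cold). In BATdKO mice 1 of 8 passed, against 7.07% of all genes (3.76% higher and 3.31% lower). Of the 8 members 2 had an unadjusted p under 0.05 in Cre- mice, as did 18.6% of all genes, and 3 in BATdKO mice, as did 17.2%. Between genotypes at 8°C 0 of 8 members passed in edgeR's test, against 1.82% of all genes (0.697% higher and 1.12% lower in BATdKO mice), and 0 had an unadjusted p under 0.05, against 9.24%. At 30°C 0 of 8 passed in edgeR's test, where 0% of all genes did, and 1 member, Clock, had an unadjusted p under 0.05, as did 10.4% of all genes. The interaction of genotype and temperature was passed by 0 of 8 members and 0.0961% of all genes, and again 1 member, Clock, had an unadjusted p under 0.05, as did 8.05% of all genes. DESeq2 also called 0 members in the last 3 comparisons. The log2 fold changes of all 8 members were smaller than 0.5 in size in each of the 5 contrasts. Their median was -0.12 for cold in Cre- mice and -0.08 in BATdKO mice, where the median of all genes was -0.02 and -0.0026. It was -0.06 between genotypes at 8°C and -0.11 at 30°C. The 4 simple comparisons share groups, so that each group enters 1 cold and 1 genotype contrast.

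**Figure D1:**
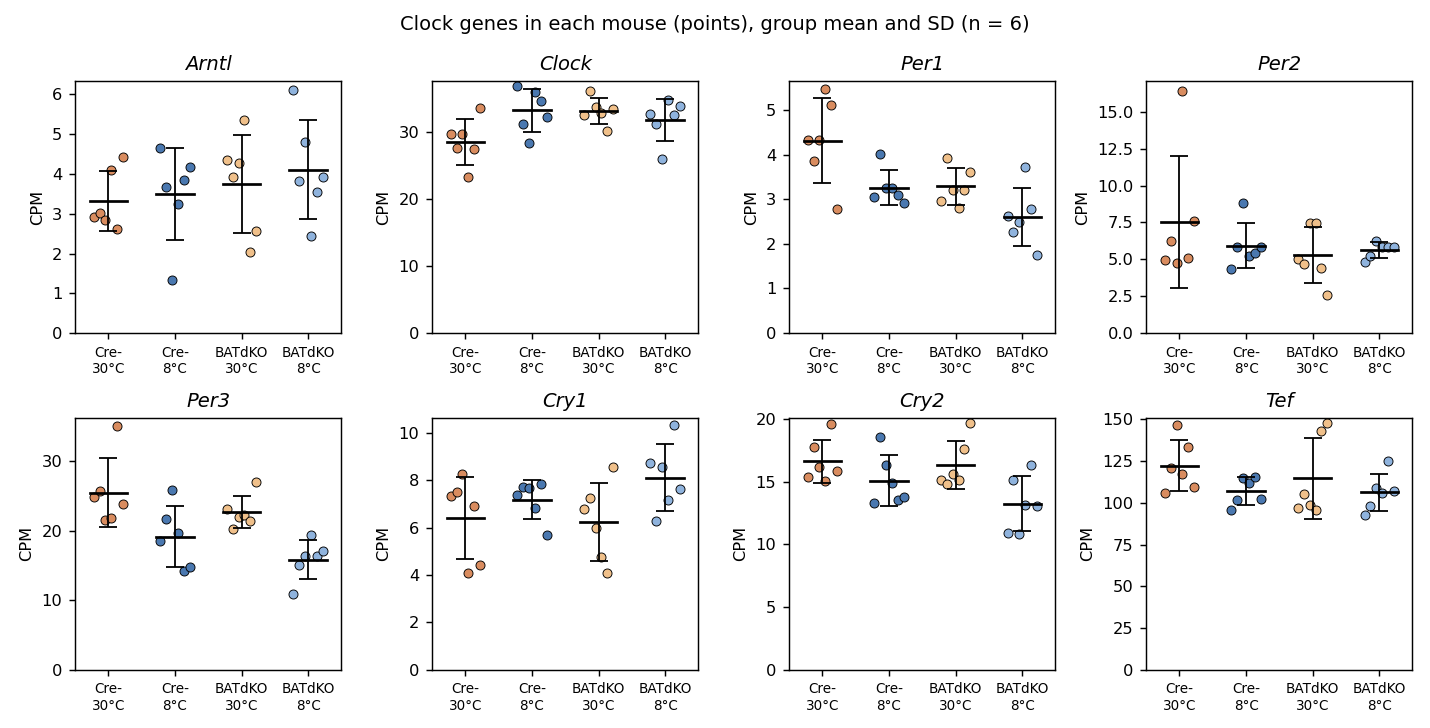
Level of each measured clock gene in CPM (y axis, from 0) in each of the 24 mice, by labelled genotype and temperature; points are mice, the horizontal line is the group mean and the bars are the SD (n = 6). Per3 lay at 20.2 to 27.0 CPM in BATdKO mice at 30°C and at 10.9 to 19.3 CPM at 8°C, whereas for the other genes the groups overlapped in each of the 4 comparisons of groups.

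Arntl, the obligate partner of CLOCK and NPAS2 (ENSMUSG00000055116, chromosome 7, 113207465 to 113314126), was among the lowest of the members, with 3 to 63 counts per library. At 30°C it lay at 2.62, 2.97 and 4.43 CPM (lowest, median and highest of 6 mice) in Cre- mice and at 2.03, 4.10 and 5.35 CPM in BATdKO mice. At 8°C the values were 1.34, 3.76 and 4.66 CPM in Cre- mice and 2.44, 3.87 and 6.10 CPM in BATdKO mice. The 4 groups overlapped, and the single lowest value belonged to a cold Cre- mouse. Its log2 fold change with cold was 0.14 in Cre- mice (95% interval -0.36 to 0.64, adjusted p = 0.845 in edgeR's quasi-likelihood test, as for all adjusted p-values of contrasts here) and 0.04 in BATdKO mice (-0.46 to 0.53, adjusted p = 0.984). Between genotypes it was 0.15 at 8°C (-0.35 to 0.65, adjusted p = 0.938) and 0.25 at 30°C (-0.24 to 0.74, adjusted p = 0.78). None of the intervals excluded 0. The sign for cold in BATdKO mice turned in 4 of 12 fits with 1 mouse fewer (m5 or m6 at 30°C, m1 or m3 at 8°C).

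Clock, whose protein carries the other part of the activator (ENSMUSG00000029238, chromosome 5, 76209868 to 76304792), was measured more deeply, with 17 to 387 counts per library. It lay at 23.2, 28.7 and 33.6 CPM in Cre- mice and 30.2, 33.2 and 36.1 CPM in BATdKO mice at 30°C. At 8°C it lay at 28.4, 33.5 and 37.0 CPM in Cre- mice and 26.0, 32.6 and 34.7 CPM in BATdKO mice. Cre- mice at 30°C were thus the lowest of the 4 groups by median, although every pair of groups overlapped. The log2 fold change with cold was 0.19 in Cre- mice (0.02 to 0.36, unadjusted p = 0.0291, adjusted p = 0.196) and -0.06 in BATdKO mice (-0.23 to 0.11, adjusted p = 0.766). Between genotypes it was 0.19 at 30°C (0.02 to 0.36, unadjusted p = 0.0331, adjusted p = 0.42) and -0.07 at 8°C (-0.24 to 0.10, adjusted p = 0.897). The difference between the cold responses was -0.25 (-0.49 to -0.01, unadjusted p = 0.039, adjusted p = 0.589), so none of these passed the threshold. Without Cre- mouse m6 at 30°C, the mouse with the highest Clock level of its group, Clock passed the threshold for cold in Cre- mice (adjusted p = 0.0804). Clock had the narrowest intervals of the members.

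**Figure D2:**
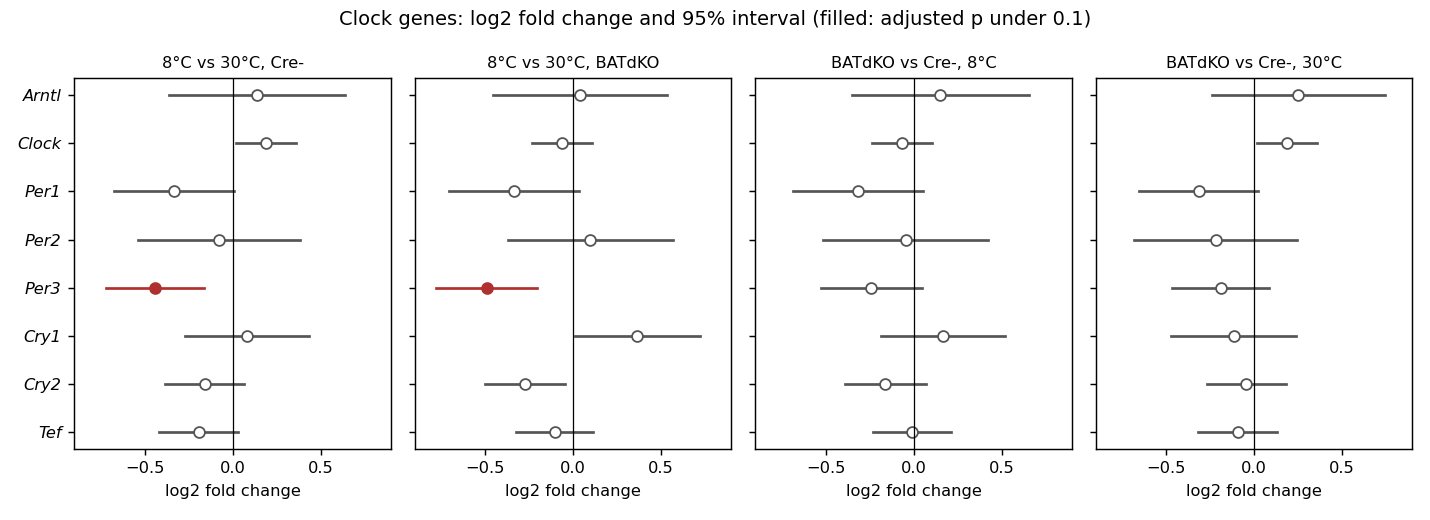
Log2 fold change (x axis) and 95% interval (line) of each clock gene in 4 comparisons; filled red symbols have an adjusted p under 0.1. Per3 was at -0.44 and -0.49 for cold in Cre- and BATdKO mice and was the only filled symbol in each, and no gene was filled between genotypes.

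The Period genes encode the repressors whose build-up and decay time the cycle. Per3 (ENSMUSG00000028957, chromosome 4, 151003652 to 151044665), whose promoter with 2 D-boxes is printed above, lay at 21.5, 24.3 and 35.1 CPM in Cre- mice at 30°C and at 14.2, 19.1 and 25.9 CPM in Cre- mice at 8°C. In BATdKO mice it lay at 20.2, 22.1 and 27.0 CPM at 30°C and at 10.9, 16.4 and 19.3 CPM at 8°C. In BATdKO mice every cold mouse was below every warm mouse, as was the case, in either direction, for 2.99% of all genes, and in Cre- mice 4 of 6 cold mice were below all warm ones and the others overlapped, where 2.93% of all genes had no overlap. Per3 fell by 0.44 on the log2 scale in Cre- mice (SE 0.14, 95% interval -0.72 to -0.16, adjusted p = 0.0515), a ratio of 0.736, and by 0.49 in BATdKO mice (SE 0.14, -0.78 to -0.21, adjusted p = 0.0383), a ratio of 0.711. The interaction was -0.05 (-0.45 to 0.35, adjusted p = 0.987). The call in Cre- mice was lost when only the Cre- groups were fitted (adjusted p = 0.112) and without m5 at 30°C, m5 at 8°C or m6 at 8°C (adjusted p up to 0.166), whereas the call in BATdKO mice was kept in every fit that left out 1 mouse (adjusted p up to 0.0888). Between genotypes the log2 fold change was -0.24 at 8°C (-0.53 to 0.05, adjusted p = 0.665) and -0.19 at 30°C (-0.47 to 0.09, adjusted p = 0.68). Between mice of a group, Per3 had r = -0.06 with the brown adipocyte marker share, which was higher in the cold groups by median. It had r = 0.30 with the hepatocyte share, which was lower in the cold groups by median, and -0.19 with the skeletal muscle share. With group means removed, none of these values describes the change with cold. The part of tissue makeup in that change was not tested.

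Per1, a Period gene that also answers to cAMP and glucocorticoid signals (ENSMUSG00000020893, chromosome 11, 69095217 to 69109960), had 4 to 55 counts per library. It lay at 2.78, 4.33 and 5.47 CPM in Cre- mice and 2.80, 3.21 and 3.93 CPM in BATdKO mice at 30°C. At 8°C it lay at 2.91, 3.17 and 4.01 CPM in Cre- mice and 1.76, 2.55 and 3.73 CPM in BATdKO mice. The cold BATdKO group was the lowest, and 5 of its 6 mice were below every warm BATdKO mouse and below every cold Cre- mouse. All 4 log2 fold changes nevertheless had intervals that reached 0, at -0.33 for cold in Cre- mice (-0.67 to 0.01, adjusted p = 0.279), -0.34 for cold in BATdKO mice (-0.70 to 0.03, adjusted p = 0.342), -0.32 between genotypes at 8°C (-0.69 to 0.05, adjusted p = 0.665) and -0.32 at 30°C (-0.65 to 0.02, adjusted p = 0.518).

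Per2, the partner of PER1 in the repressor complex (ENSMUSG00000055866, chromosome 1, 91415982 to 91459324), had 11 to 88 counts per library. It lay at 4.73, 5.69 and 16.4 CPM in Cre- mice and 2.55, 4.88 and 7.48 CPM in BATdKO mice at 30°C. At 8°C it lay at 4.34, 5.64 and 8.82 CPM in Cre- mice and 4.79, 5.85 and 6.24 CPM in BATdKO mice. The 4 medians were close together, and the value of 16.4 CPM came from 12 counts in the library with the lowest total. The log2 fold change with cold was -0.08 in Cre- mice (-0.54 to 0.39, adjusted p = 0.916) and turned positive without that library or without m6 of the same group, and it was 0.10 in BATdKO mice (-0.37 to 0.57, adjusted p = 0.892). Between genotypes it was -0.04 at 8°C (-0.51 to 0.42, adjusted p = 0.998) and -0.22 at 30°C (-0.68 to 0.24, adjusted p = 0.808).

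The cryptochromes are the stronger repressors of the activator pair. Cry1 (ENSMUSG00000020038, chromosome 10, 85131700 to 85185064) lay at 4.10, 7.11 and 8.24 CPM in Cre- mice and 4.07, 6.39 and 8.56 CPM in BATdKO mice at 30°C. At 8°C it lay at 5.69, 7.53 and 7.82 CPM in Cre- mice and 6.29, 8.09 and 10.3 CPM in BATdKO mice. Warm mice were the more spread, and the groups overlapped. With cold the log2 fold change was 0.36 in BATdKO mice (0.01 to 0.72, unadjusted p = 0.0454, adjusted p = 0.276) and 0.08 in Cre- mice (-0.27 to 0.43, adjusted p = 0.873). Between genotypes it was 0.17 at 8°C (-0.19 to 0.52, adjusted p = 0.865) and -0.12 at 30°C (-0.47 to 0.24, adjusted p = 0.897).

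Cry2 (ENSMUSG00000068742, chromosome 2, 92403646 to 92434043) lay at 15.0, 16.0 and 19.6 CPM in Cre- mice and 14.8, 15.4 and 19.7 CPM in BATdKO mice at 30°C. At 8°C it lay at 13.3, 14.4 and 18.6 CPM in Cre- mice and 10.9, 13.1 and 16.3 CPM in BATdKO mice. Like Per3, its lowest group by median was the cold BATdKO group, in which 4 of 6 mice were below every warm BATdKO mouse. The log2 fold change with cold was -0.28 in BATdKO mice (-0.50 to -0.05, unadjusted p = 0.02, adjusted p = 0.182) and -0.16 in Cre- mice (-0.39 to 0.07, adjusted p = 0.476). Without BATdKO mouse m5 at 8°C, which had the highest Cry2 level of its group, Cry2 passed the threshold for cold in BATdKO mice (adjusted p = 0.0935). Between genotypes it was -0.16 at 8°C (-0.39 to 0.07, adjusted p = 0.766) and -0.04 at 30°C (-0.27 to 0.18, adjusted p = 0.964).

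Tef, the output factor that acts through D-boxes (ENSMUSG00000022389, chromosome 15, 81802421 to 81826863), had the highest level of the members on the scale of 3′ tags, which does not grow with transcript length. It lay at 106, 119 and 146 CPM in Cre- mice and 95.6, 102 and 148 CPM in BATdKO mice at 30°C. At 8°C it lay at 95.4, 107 and 115 CPM in Cre- mice and 92.8, 106 and 125 CPM in BATdKO mice. In Cre- mice 3 of 6 cold mice were below every warm mouse, and the highest warm values were not reached in the cold under either label. The log2 fold change with cold was -0.19 in Cre- mice (-0.42 to 0.03, adjusted p = 0.354) and -0.11 in BATdKO mice (-0.33 to 0.12, adjusted p = 0.682). Between genotypes it was -0.01 at 8°C (-0.23 to 0.21, adjusted p = 1.00) and -0.09 at 30°C (-0.32 to 0.13, adjusted p = 0.838). By level the members followed the order Tef, Clock, Per3 and Cry2, then Cry1, Per2, Arntl and Per1, which lay at 1.34 to 16.4 CPM and overlapped. Exons of Arntl, Cry2 and Tef overlap a gene on the other strand (Gm45355, D930015M05Rik and Gm17597), and whether the counting used strand is not given in the sources used here.

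The ratio of 2 members within a library does not depend on how libraries are scaled. The log2 ratio of Per3 to Arntl counts had a median of 3.00 in Cre- and 2.39 in BATdKO mice at 30°C, and of 2.28 and 2.05 at 8°C. For Tef over Arntl the medians were 5.25 and 4.64 at 30°C and 4.85 and 4.72 at 8°C, and for Per2 over Arntl 0.87, 0.37, 0.59 and 0.51 in the same order. The spread within a group was wide, from 1.83 to 4.27 for Per3 over Arntl in cold Cre- mice. These ratios are given as values and were not tested.

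Clock genes also varied between mice of a group, and some did so together. Of the 28 pairs of members, 5 passed an adjusted p of 0.05 over the 24 mice after each group mean was removed (permutation within groups, two-sided, 100000 resamples). Arntl ran opposite to Tef (Pearson's r = -0.65, p = 0.00067, adjusted p = 0.0188; Spearman's rho = -0.68, p = 0.00076, adjusted p = 0.0106), to Per3 (r = -0.62, p = 0.00195, adjusted p = 0.0273; rho = -0.51, p = 0.0141, adjusted p = 0.0953) and to Cry2 (r = -0.57, p = 0.00686, adjusted p = 0.0384; rho = -0.70, p = 0.00039, adjusted p = 0.0106). Cry2 ran with Per3 (r = 0.61, p = 0.0033, adjusted p = 0.0308; rho = 0.60, p = 0.00506, adjusted p = 0.0472) and with Tef (r = 0.53, p = 0.00642, adjusted p = 0.0384; rho = 0.47, p = 0.017, adjusted p = 0.0953). Each of the 5 had the same sign in 4 of 4 groups. Among the 12 mice at 30°C the r of these pairs was, in that order, -0.84, -0.33, -0.73, 0.77 and 0.76, and among the 12 mice at 8°C it was -0.51, -0.78, -0.49, 0.54 and 0.37, and 0 pairs passed within either temperature. Without the 2 mice farthest from the median level of Arntl, r was -0.65 with Tef, -0.62 with Per3 and -0.62 with Cry2. Without the 2 mice farthest from the median of Per3, r of Per3 and Cry2 was 0.46, and without the 2 farthest from the median of Cry2, r of Cry2 and Tef was 0.56. The number of pairs past the threshold ran from 0 to 6 when 1 mouse was left out, with 0 without BATdKO mouse m6 at 30°C or m1 at 8°C, 1 without Cre- mouse m5 at 30°C or m6 at 8°C, and 2 without the low-count m4. The activators Arntl and Clock had r = 0.22, and Per1 and Per2 r = 0.01.

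**Figure D3:**
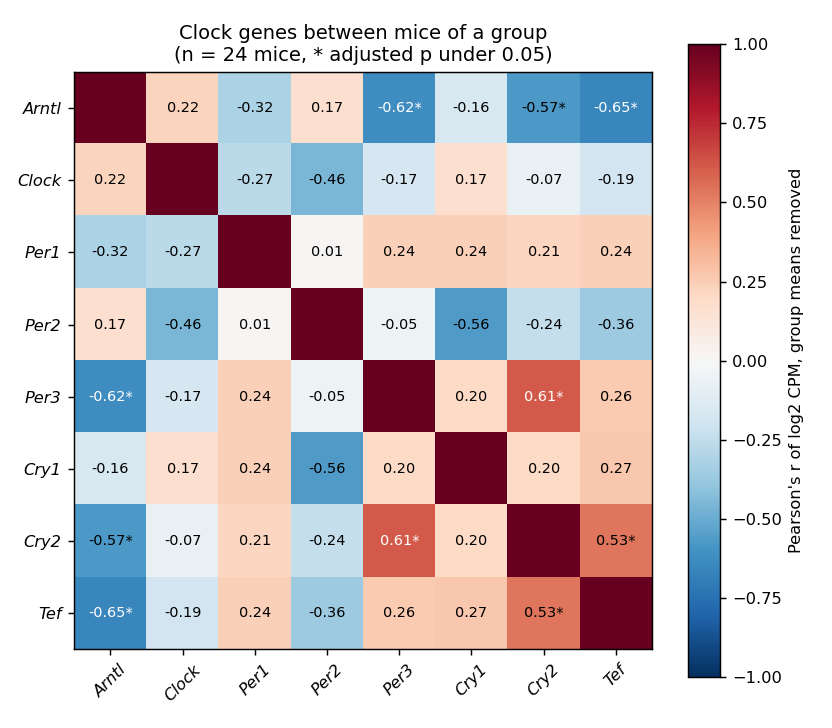
Pearson's r between clock genes over 24 mice, from log2 CPM with group means removed; rows and columns are genes, colour runs from -1 (blue) to 1 (red), and an asterisk marks an adjusted p under 0.05. The row of Arntl is negative against Tef (-0.65), Per3 (-0.62) and Cry2 (-0.57).

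Some of these relations were common among genes at large and others were rare. Among 8542 other genes of at least 5 CPM, 0.503% correlated with Arntl as strongly as Tef did, in either direction, but 14.9% correlated with Tef as strongly as Arntl did. For Arntl and Per3 the shares were 1.10% of genes with Arntl and 0.386% with Per3, and for Cry2 and Per3 they were 2.40% with Cry2 and 0.421% with Per3. For Arntl and Cry2 they were 2.48% with Arntl and 4.67% with Cry2. For Cry2 and Tef they were 8.81% with Cry2 and 27.5% with Tef. Tef also ran opposite to the share of brown adipocyte markers (r = -0.76, p = 8e-05, adjusted p = 0.00256; rho = -0.78, p = 0.00014, adjusted p = 0.00448), the 1 relation that passed out of 32 between the 8 members and 4 measures of the library (total count and the marker shares of hepatocytes, brown adipocytes and skeletal muscle). With the hepatocyte share Tef had r = 0.36 (adjusted p = 0.332). Arntl and Cry2 had r = 0.30 and -0.43 with the brown adipocyte share, neither past the threshold (adjusted p = 0.332 and 0.215). The part of tissue makeup in the 5 pairs was not tested.

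**Figure D4:**
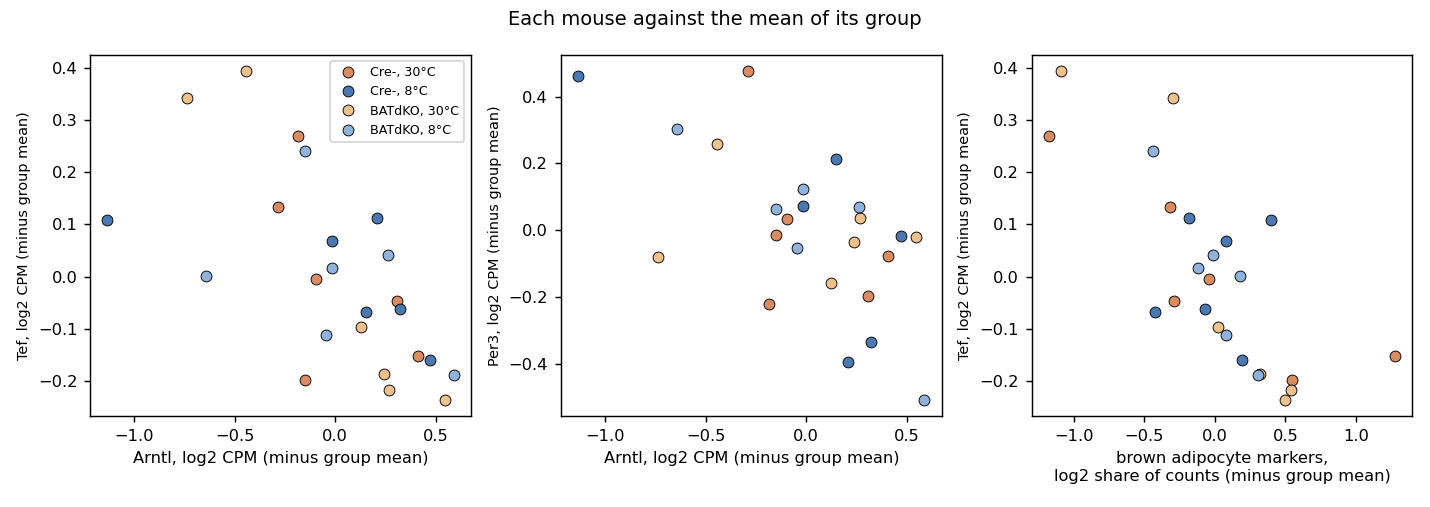
Each mouse against the mean of its group (both axes in log2 units, 0 is the group mean; colours are the 4 groups, n = 24): Tef against Arntl, Per3 against Arntl, and Tef against the share of counts on brown adipocyte markers. All 3 clouds fall from left to right, with r of -0.65, -0.62 and -0.76.

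The genes whose deviations most resembled those of Arntl were Lrrc39 (r = 0.82), Nr3c1 (the glucocorticoid receptor, r = 0.76), Capza1 (r = 0.74), Rtf1 (r = 0.73) and Acyp2 (r = 0.71), and the most opposite were Bad (r = -0.84), Hypk (r = -0.75), Pmvk (r = -0.71), Tecr (r = -0.70) and Vps72 (r = -0.70). Nr1d2, the gene of REV-ERBβ, stood near the opposite end for Arntl at r = -0.60, rank 8481 of 8542, and Nr1d1 was at r = -0.35. For Tef, a gene taken as reference after its values had been seen, the most alike were Mpst (r = 0.91), Aldh2 (r = 0.91), Snord13 (r = 0.91), Ftcd (r = 0.91) and Klf3 (r = 0.90), and the most opposite Gm4459 and Ndufb4c (r = -0.90 each), Ndufab1-ps (r = -0.90), Dpf2 (r = -0.89) and Timm8b (r = -0.89). These values describe likeness only. They are over 24 mice whose libraries differed in depth and marker shares, and all genes of a mouse come from the same library.

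Of the genes of the second loop reported here, 1, Nr1d1, fell with cold in BATdKO mice, against 3.31% of all genes. None of them passed in the other contrasts of edgeR's test. With so few genes, a count of 1 is not read as a result about the loop. Nr1d1, the gene of REV-ERBα (chromosome 11, 98767932 to 98775333), lay at 27.1, 38.6 and 55.1 CPM in BATdKO mice at 30°C and 24.3, 29.0 and 34.5 CPM at 8°C. The 2 groups overlapped, with 3 of 6 cold mice below all warm ones. Nr1d1 fell by 0.48 on the log2 scale in BATdKO mice with cold (SE 0.14, adjusted p = 0.04), a call lost without m5 or m6 at 30°C, the warm BATdKO mice with the highest values (adjusted p = 0.101 and 0.108). In Cre- mice it lay at 23.2, 34.0 and 38.6 CPM at 30°C and 25.7, 27.4 and 29.6 CPM at 8°C, a log2 fold change of -0.28 (SE 0.14, adjusted p = 0.266), and the interaction was -0.20 (adjusted p = 0.845). Its exons overlap Thra on the other strand.

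Among 5 E-box repressors and PAR bZIP relatives, all measured, 1 fell with cold in Cre- mice, against 3.59% of all genes, and 1 was higher in BATdKO mice at 8°C, against 0.697%. Hlf, the relative of DBP and TEF (chromosome 11, 90336536 to 90390895), lay at 29.8, 33.6 and 36.9 CPM in Cre- mice and 41.2, 46.5 and 71.0 CPM in BATdKO mice at 8°C. The groups did not overlap, as was the case for 1.95% of all genes. Its log2 fold change was 0.59 (SE 0.12, adjusted p = 0.00845), and the call was kept in every fit. At 30°C Hlf was at 0.24 between genotypes (SE 0.12, adjusted p = 0.488), and the interaction did not pass (0.34, SE 0.17, adjusted p = 0.632). Bhlhe41, the gene of the E-box repressor DEC2, lay at 2.73, 4.94 and 7.41 CPM in Cre- mice at 30°C and 2.07, 2.60 and 3.26 CPM at 8°C, on 2 to 72 counts per warm library. It fell by 0.96 on the log2 scale (SE 0.29, adjusted p = 0.0478), and the call was lost without Cre- mouse m6 at 30°C (adjusted p = 0.116). In BATdKO mice its change with cold was -0.59 (SE 0.32, adjusted p = 0.347).

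**Figure D5:**
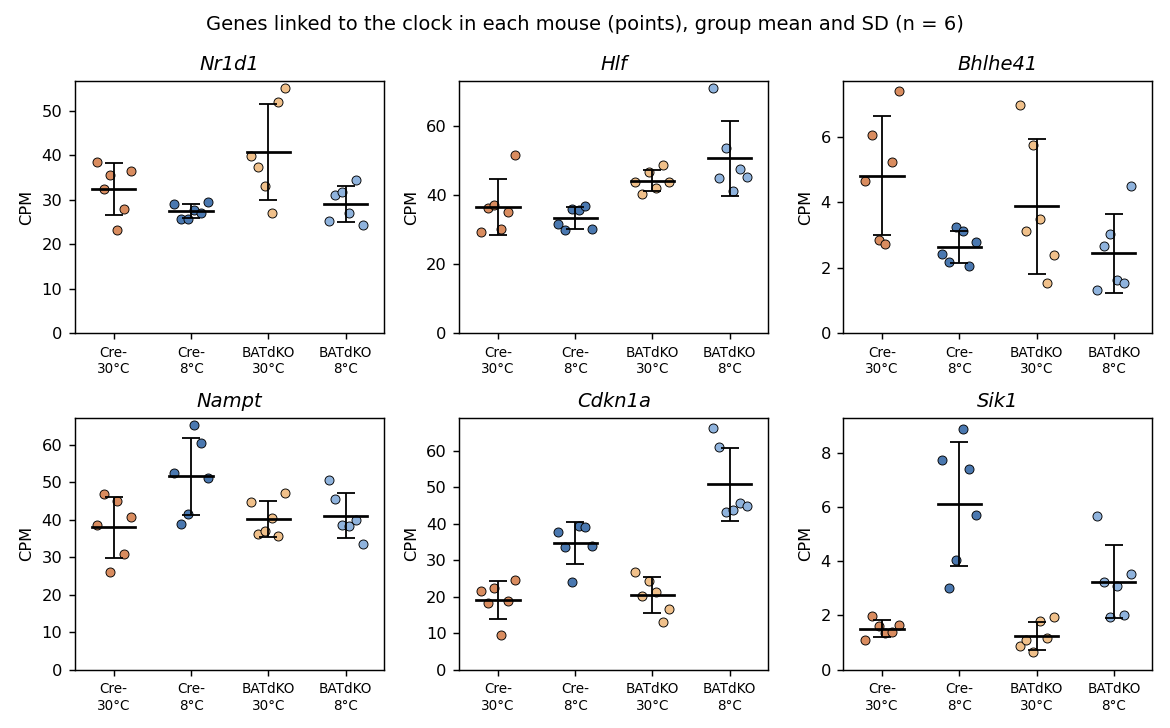
Level in CPM (y axis, from 0) of 6 genes linked to the clock in each of the 24 mice; points are mice, the line is the group mean and the bars are the SD (n = 6). Hlf lay higher in BATdKO than in Cre- mice at 8°C without overlap, as was the case, in either direction, for 1.95% of all genes. Sik1 lay higher at 8°C than at 30°C under both labels without overlap, and Cdkn1a did so in BATdKO mice. With cold 2.93% of all genes had no overlap in Cre- mice and 2.99% in BATdKO mice. In BATdKO mice Sik1 reached 1.95 CPM at 30°C and began at 1.96 CPM at 8°C, on 3 to 21 and 11 to 33 counts. In Cre- mice it lay at 1.10 to 1.99 CPM and 3.01 to 8.87 CPM, on 1 to 19 and 18 to 82 counts.

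In a list of 9 genes, Timeless and 8 kinases and ubiquitin ligases that act on PER and CRY proteins, 0 passed in any of the 5 contrasts of edgeR's test. The smallest p belonged to Gsk3b, with a log2 fold change of 0.16 for cold in Cre- mice (0.03 to 0.29, unadjusted p = 0.0167, adjusted p = 0.143). Of 7 rhythmic outputs 6 were measured, and 2 rose with cold in Cre- mice, against 5.57% of all genes, and 1 in BATdKO mice, against 3.76%. Nampt, the enzyme of NAD synthesis, lay at 25.9, 39.7 and 46.8 CPM at 30°C and 38.8, 51.7 and 65.2 CPM at 8°C in Cre- mice, a log2 fold change of 0.47 (SE 0.14, adjusted p = 0.037) that was lost without m3 or m5 at 30°C or m4 at 8°C (adjusted p up to 0.125). In BATdKO mice the log2 fold change of Nampt was 0.03 (SE 0.14, adjusted p = 0.97), and the interaction was -0.44 (adjusted p = 0.556). Cdkn1a, the cell cycle inhibitor p21, lay at 9.57, 20.1 and 24.7 CPM in Cre- mice at 30°C and 24.0, 35.9 and 39.4 CPM at 8°C, and at 13.2, 20.8 and 26.8 CPM and 43.3, 45.2 and 66.2 CPM in BATdKO mice. It rose with cold by 0.77 in Cre- mice (SE 0.16, adjusted p = 0.00252) and 1.31 in BATdKO mice (SE 0.16, adjusted p = 5.6e-06) on the log2 scale. It was also higher under the BATdKO label at 8°C (0.54, SE 0.15, adjusted p = 0.0874), a call lost in 10 of the 12 fits without 1 mouse, all but those without BATdKO mice m3 or m4 (adjusted p up to 0.224). The skeletal muscle marker share was also lower under the BATdKO label at 8°C by median, as given above, and its part in the genotype results of Hlf, Cdkn1a and Sik1 was not tested.

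Signals that are known to reach the clock from outside were read from 3 further lists. Of 5 glucocorticoid targets, 1 rose with cold in Cre- mice, against 5.57% of all genes, and 1 rose and 1 fell in BATdKO mice, against 3.76% and 3.31%. Sgk1 rose by 0.95 (SE 0.15, adjusted p = 0.000103) and 0.72 (SE 0.15, adjusted p = 0.00497) on the log2 scale, and Zbtb16 fell by 0.80 (SE 0.20, adjusted p = 0.0214) in BATdKO mice. In Cre- mice Zbtb16 was at -0.24 (adjusted p = 0.602), and its interaction was -0.56 (adjusted p = 0.642). Of 9 cAMP and immediate early genes 5 were measured. With cold 2 of them rose in Cre- mice, against 5.57% of all genes, and 3 in BATdKO mice, against 3.76%, and 1 was lower under the BATdKO label at 8°C, against 1.12%. Sik1, a kinase gene induced by cAMP, rose by 2.01 (SE 0.27, adjusted p = 1.4e-05) in Cre- mice and 1.20 (SE 0.30, adjusted p = 0.0199) in BATdKO mice, and was lower under the BATdKO label at 8°C (-1.03, SE 0.25, adjusted p = 0.0383), a call lost without Cre- mouse m4 or BATdKO mice m3 or m5 (adjusted p up to 0.125). Ppargc1a, the coactivator PGC-1α, rose by 1.27 (SE 0.16, adjusted p = 3.71e-06) and 0.95 (SE 0.15, adjusted p = 0.00023), and Nr4a2 rose by 0.80 in BATdKO mice (SE 0.20, adjusted p = 0.0191). In Cre- mice Nr4a2 was at 0.54 (adjusted p = 0.128), and its interaction was 0.26 (adjusted p = 0.864). Of 5 temperature-linked genes 3 were measured and 0 passed in any contrast of edgeR's test. Among them Cirbp, the cold-inducible RNA-binding protein, had the smallest p, with a log2 fold change of -0.25 for cold in BATdKO mice (unadjusted p = 0.0401, adjusted p = 0.259). Of 6 corepressor subunits, 3 were higher under the BATdKO label at 8°C, against 0.697% of all genes, namely Tbl1xr1 (0.92, SE 0.17, adjusted p = 0.00348), Tbl1x (0.39, SE 0.10, adjusted p = 0.0633) and Ncor1 (0.29, SE 0.07, adjusted p = 0.0496), and the calls of Tbl1x and Ncor1 were lost in 9 and 4 of the 12 fits without 1 mouse (adjusted p up to 0.151 and 0.115). The call of Tbl1x was kept without Cre- mice m2 or m4 or BATdKO mouse m3, and that of Ncor1 was lost without Cre- mice m4 or m6 or BATdKO mice m1 or m4.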

How the data were processed

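BAT RNA of 24 mice was measured with a QuantSeq 3′ tag kit. Forward reads were trimmed (BBDuk), aligned to GRCm38 (STAR) and summed per gene (Rsubread) by the authors, and the deposited values are raw counts per gene, without normalization, from 699703 to 11527643 per library. The annotation release, the use of strand and the rule for leaving out low genes are not given in the sources used here. The paper removed outliers that its text does not name, so all 24 libraries were used. Columns were matched to samples by the names in the labels, and 12608 of 12615 identifiers matched a gene symbol. Counts were analysed with edgeR 4.0.16 in R 4.3.3 (TMM, filterByExpr on the 4 groups, 12485 genes kept and 130 removed, a quasi-likelihood fit with a mean per group), with Benjamini-Hochberg adjustment over all genes and a threshold of 0.1. Standard errors are the absolute log2 fold change over the square root of F. CPM uses TMM library sizes, and log2 CPM for correlations a prior count of 2, with pairs called at an adjusted p of 0.05. Any 2 libraries of a group differed by more than counting noise (chi-square over degrees of freedom of at least 2.48), so none was counted as a repeat. The labels name mice by number and do not say more of their origin.

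The members and gene lists were chosen with earlier results of these data known. Every member was named, and of each other list the genes that passed a test or, where none did, the gene with the smallest p. One listed gene is not reported here. The genes most alike were the 5 highest and 5 lowest in r, among genes of at least 5 CPM. Dbp was meant as the second reference for likeness and for ratios. Without a row for it, Tef was used for likeness and Per3 and Tef for ratios, after values had been seen. Alternatives were RLE scaling, no filter, a mean count of at least 10, robust dispersion, DESeq2 1.42.0, the groups of a contrast alone, a prior count of 0.5, and leaving out each mouse. The steps were tested on simulated data. Positions and overlaps are from GENCODE vM21 on GRCm38, and promoters from RefSeq on GRCm38.p6. Motifs were searched in the 250 bases before each start.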

Additional observations from a re-analysis of the deposited data

Results flagged for a closer look

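Within a group of 6 mice, 4 of the 32 combinations of member and group held a mouse whose gap to the nearest other mouse was a larger part of the range than Dixon's critical value at the 95% level, and chance flags about 1 in 20. Per2 lay at 16.4 CPM in Cre- mouse m4 at 30°C, from 12 counts in the library with the lowest total, and the nearest mouse was at 7.62 CPM. Per2 also lay at 8.82 CPM in Cre- mouse m3 at 8°C, from 46 counts, with the nearest at 5.85 CPM, and the same mouse had the lowest Arntl level of all libraries (1.34 CPM, 7 counts). Per1 lay at 4.01 CPM in Cre- mouse m2 at 8°C, from 24 counts, with the nearest at 3.26 CPM. Per3 lay at 35.1 CPM in Cre- mouse m5 at 30°C, from 254 counts, with the nearest at 25.7 CPM, and without that mouse the change of Per3 with cold in Cre- mice no longer passed the threshold.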

How the results depend on the processing

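The count of members past the threshold was kept under RLE scaling, no filter, a mean count of at least 10, robust dispersion and DESeq2 in all 5 contrasts. With only the groups of the contrast, 0 members instead of 1 passed for cold in Cre- mice. With 1 mouse left out, 0 to 2 members passed for cold in Cre- mice, 1 to 2 for cold in BATdKO mice and 0 in the other contrasts. Over those fits the log2 fold change for cold ran from -0.21 to 0.025 for Per2 and from -0.030 to 0.15 for Cry1 in Cre- mice, and from -0.086 to 0.19 for Arntl and from -0.047 to 0.26 for Per2 in BATdKO mice. Between genotypes it ran from -0.12 to 0.088 for Per2 and from -0.057 to 0.029 for Tef at 8°C, and from -0.11 to 0.012 for Cry2 at 30°C. The interaction ran from -0.25 to 0.054 for Arntl, from -0.14 to 0.10 for Per1 and from -0.17 to 0.048 for Per3. These 10 changed sign and none of them was past the threshold. The direction of Per3 with cold was kept under each alternative and each left-out mouse, from -0.54 to -0.33 in Cre- mice and from -0.56 to -0.44 in BATdKO mice.

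Over all genes, fitting only the groups of the contrast moved the count for genotype at 8°C from 227 to 477. DESeq2 moved that for genotype at 30°C from 0 to 90 and that for the interaction from 12 to 51, and robust dispersion moved the latter to 21. The cause was not tested. Among the correlations, 0 pairs passed in the mice at 30°C alone and 0 in those at 8°C alone, with 12 mice each instead of 24, and 0 to 6 with 1 mouse left out. No paired analysis was possible because the labels give the groups no shared replicate numbers.

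Members with few counts limit the precision: Arntl, Per1 and Cry1 had as few as 3 or 4 counts in the library with the lowest total. P-values of contrasts set a difference of group means against the spread between these mice, and those of correlations come from permutation within groups. The hour of collection, which clock genes follow, is not given for any mouse.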
